A study of Mus musculus with 16 samples.

Results

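AMP-activated protein kinase (AMPK) is the energy sensor that muscle cells use to match fuel use to demand. The active enzyme is a complex of a catalytic alpha subunit, a scaffolding beta subunit and a gamma subunit that binds adenine nucleotides, and each class is encoded by several genes. When contraction lowers ATP, AMP and ADP bind the gamma subunit and favour phosphorylation of the alpha subunit by upstream kinases, chiefly LKB1 (encoded by Stk11) and, when calcium rises, CaMKK2 (encoded by Camkk2). The genes described here are the 7 AMPK subunit genes (Prkaa1, Prkaa2, Prkab1, Prkab2, Prkag1, Prkag2 and Prkag3) and these 2 kinases, chosen by gene symbol from the deposited table, 9 of 23970 symbols. Each had 1 entry, and all 9 passed the filter on low values that left 11256 genes for testing.

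RNA sequencing was performed on quadriceps, a thigh muscle, from 16 male C57BL/6NTac mice aged 16 weeks, 4 in each of 4 groups. CON mice had eaten a control diet (10% kcal from fat) and HFD mice a high-fat diet (60% kcal from fat) for 10 weeks. The CON-pre and HFD-pre groups were sampled under basal conditions, and the CON-post and HFD-post groups 3 h after a single bout of treadmill running to exhaustion. Every group was acclimatised to the treadmill and fasted, the labels name no engineered allele, and each muscle was sampled at a single time after running. The values are FPKM, which count fragments relative to the length of the transcript and the size of the library, so levels can be set side by side between genes. Summed FPKM ranged from 283575 to 329282 per library, and the deposited values carry no read counts, so depth is known only as relative to CON-pre replicate 1 (0.706 to 1.12, from values of at most 0.5 FPKM). The 6 skeletal muscle markers (Acta1, Ckm, Mb, Ttn, Des and Neb) were all present, at a summed 26365 to 33814 FPKM, while the 3 satellite cell markers summed to at most 1.34 FPKM. In whole muscle, fewer cells of a type and less RNA per cell cannot be told apart.

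At the level of transcripts, 1 gene of each subunit class (Prkaa2, Prkab2 and Prkag3) was the most abundant in every library. Prkab2 was the most abundant member, at 106 FPKM averaged over the 16 libraries, higher than 97.3% of the genes tested. Stk11 (42.2 FPKM), Prkag3 (38.2 FPKM) and Prkaa2 (34.0 FPKM) followed, each above at least 90.6% of the genes tested. Prkag1 averaged 20.9 FPKM, Prkag2 5.73 FPKM, Prkaa1 3.53 FPKM and Prkab1 3.12 FPKM. Camkk2 was the lowest at 0.960 FPKM, above only 11.1% of the genes tested.

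The order of the means in CON-pre was Prkab2, Prkag3, Stk11, Prkaa2, Prkag1, Prkag2, Prkaa1, Prkab1 and Camkk2. The ranges of neighbours in this order overlapped for 3 pairs, while within single libraries Prkag3 stood above Stk11 in 3 of 4, Stk11 above Prkaa2 in 4 of 4 and Prkaa1 above Prkab1 in 4 of 4. In HFD-pre the order was the same, and ranges overlapped only for Prkag3 and Stk11 (Prkag3 higher in 4 of 4 libraries) and for Prkaa1 and Prkab1 (Prkaa1 higher in 2 of 4). In both post-exercise groups Prkag3 stood below Stk11 and Prkaa2, with values that overlapped those of Prkaa2 only (Prkaa2 higher in 3 of 4 libraries of each group).

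**Figure D1:**
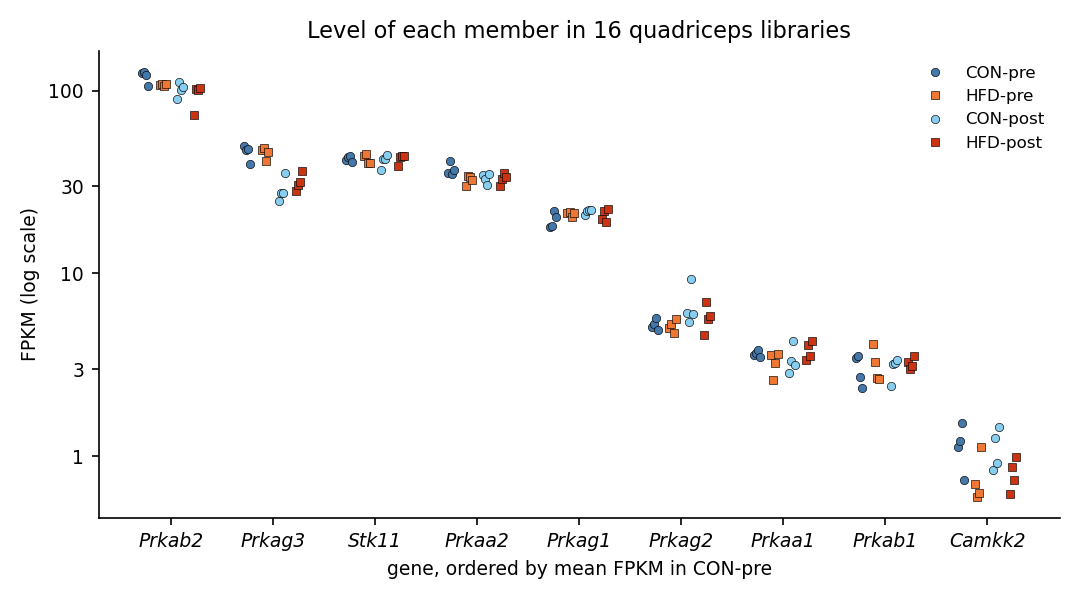
FPKM (log scale) of the 9 genes in each of the 16 libraries, ordered by the mean in CON-pre, with colour and shape marking the group. Prkab2 lies at the top near 100 FPKM (74.0 to 127), Camkk2 at the bottom (0.601 to 1.52 FPKM), and Prkag3 is the gene whose post-exercise points (24.98 to 36.5 FPKM) sit apart from its pre-exercise points (39.7 to 50.0 FPKM).

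The member that changed with exercise belonged to the gamma class. Prkag3 encodes the gamma subunit that is largely restricted to skeletal muscle and is most abundant in fast glycolytic fibres, whereas Prkag1 is expressed widely and Prkag2 is best known from the heart. In RefSeq GRCm38.p6, Prkag3 lies on chromosome 1 (74738922 to 74749471, minus strand), Prkag1 on chromosome 15 (98812797 to 98831508, minus strand) and Prkag2 on chromosome 5 (24862735 to 25106282, minus strand). The promoters of Prkag3, whose level differed after exercise, and of Prkag1, the most abundant gamma gene that was not called, are shown for comparison. Each runs from 250 bases before to 50 bases after a RefSeq transcript start, 5′ to 3′ on the gene's strand, at chr1:74748906-74749205 for Prkag3 and chr15:98831459-98831758 for Prkag1, and capitals mark E-boxes (CANNTG, the motif read by myogenic factors and other bHLH proteins). The transcript start used for Prkag1 is the end of the gene given above, while that for Prkag3 (74748955) lies 516 bases inside the gene, so the Prkag3 window is within the annotated gene.
Prkag3: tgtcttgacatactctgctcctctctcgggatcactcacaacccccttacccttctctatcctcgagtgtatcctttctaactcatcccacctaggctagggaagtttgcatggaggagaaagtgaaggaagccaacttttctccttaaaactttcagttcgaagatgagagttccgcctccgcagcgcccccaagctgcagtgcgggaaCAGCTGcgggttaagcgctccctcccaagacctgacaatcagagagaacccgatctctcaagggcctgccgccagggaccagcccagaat
Prkag1: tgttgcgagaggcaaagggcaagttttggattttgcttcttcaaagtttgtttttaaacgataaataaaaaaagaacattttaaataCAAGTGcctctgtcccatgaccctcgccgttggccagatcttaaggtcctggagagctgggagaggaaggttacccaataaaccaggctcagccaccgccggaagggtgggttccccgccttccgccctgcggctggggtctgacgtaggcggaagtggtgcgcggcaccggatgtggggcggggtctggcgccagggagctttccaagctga
The Prkag3 promoter held 54% G and C and 11 CpG, and that of Prkag1 54.7% and 16 CpG, where the medians over the 32851 promoters of the table were 52.7% and 7 CpG. Each held 1 E-box, CAGCTG at 40 bases before the transcript start used in Prkag3 and CAAGTG at 163 bases before that in Prkag1, and 72.3% of all promoters held at least 1. The GC box (GGGCGG or its complement) was present 2 times in Prkag1 and 0 times in Prkag3, and was present in 35.7% of all promoters. A TATA box (TATAAA, both strands) was found in 0 of the 11 promoters listed for the 9 genes, and in 13.6% of all promoters. These matches describe letters in a 300-base window and say nothing of binding.

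Prkag3 was down-regulated 3 h after exercise on either diet. In CON-pre it was 50.0, 47.2, 47.9 and 39.7 FPKM, and in CON-post 24.98, 27.4, 27.7 and 35.4 FPKM. In HFD-pre it was 47.1, 48.6, 41.3 and 46.3 FPKM, and in HFD-post 28.2, 30.5, 31.8 and 36.5 FPKM. Every post-exercise library was below every pre-exercise library, on the same diet and across diets.

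In CON mice the mean of Prkag3 went from 46.2 ± 4.48 to 28.9 ± 4.52 FPKM (SD, n = 4 each) and so fell by 37.5%. On the log2 scale it differed by -0.67 with a standard error of 0.11 (95% interval -0.90 to -0.45, limma adjusted p = 0.00262). Of the 16 genes down-regulated in this comparison, 3 fell by more on the log2 scale, and of all genes tested 74 did. The call held in all 26 alternative fits, with an adjusted p of 3.54e-04 to 0.0304. Prkag3 was the 1 of 9 members called here, beside 1.11% of all genes tested and 0.142% that were called lower. At an unadjusted p under 0.05 there were 4 members (Prkag3, Prkab2, Prkaa2 and Prkag2), beside 11.1% of all genes. Over all genes 109 were higher and 16 lower, with 102 and 38 under upper-quartile and 113 and 41 under quantile scaling.

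In HFD mice the mean of Prkag3 went from 45.8 ± 3.15 to 31.8 ± 3.49 FPKM and so fell by 30.7%. On the log2 scale it differed by -0.53 with a standard error of 0.11 (95% interval -0.75 to -0.30, limma adjusted p = 0.0347). Prkag3 was again the 1 member called, beside 0.542% of all genes tested and 0.0533% called lower. Of the 6 genes called lower, 5 fell by more on the log2 scale than Prkag3, and of all genes tested 83 did. An unadjusted p under 0.05 was reached by 1 member, beside 11.7% of all genes. Over all genes 55 were higher and 6 lower, with 40 and 20 under upper-quartile and under quantile scaling and 41 and 13 under median-of-ratios scaling. This call was near the threshold and was lost with no filter on low values (limma adjusted p = 0.130), with no mean-variance trend (0.0568) and with the replicate number as a block (0.0760). It was also lost without HFD-pre replicate 1, 2 or 4 (0.113, 0.131 and 0.0675) and without HFD-post replicate 1, 2 or 3 (0.0938, 0.122 and 0.0868). Its log2 fold change stayed between -0.60 and -0.47 in every alternative.

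With both diets pooled, Prkag3 averaged 46.0 ± 3.59 FPKM in the 8 pre-exercise libraries and 30.3 ± 4.05 FPKM in the 8 post-exercise libraries. The pooled difference was -0.60 on the log2 scale with a standard error of 0.08 (limma adjusted p = 1.73e-04), from the same libraries as the comparisons within each diet. The groups of 8 did not overlap, which held for 0.764% of the 11256 genes tested (0.151% of the 11256 when counting those lower after exercise). It was the 1 member called, beside 3.86% of all genes tested and 0.915% called lower. With Prkab2 and Prkag2, 3 members had an unadjusted p under 0.05, beside 18.5% of all genes. The split of calls over all genes depended on how the libraries were scaled, with 332 higher and 103 lower here, 262 and 275 with upper-quartile, 308 and 180 with median-of-ratios and 289 and 244 with quantile scaling.

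The exercise difference of Prkag3 did not pass a test of a difference between diets. The interaction of diet and exercise was 0.15 on the log2 scale (95% interval -0.17 to 0.47, unadjusted p = 0.334 and adjusted p = 1.00 by limma). HFD-pre and CON-pre differed by -0.01 (95% interval -0.23 to 0.22, adjusted p = 0.997), and HFD-post and CON-post by 0.14 (95% interval -0.08 to 0.37, adjusted p = 0.941). When 1 library was left out, the interaction ranged from 0.08 to 0.25 and the difference of HFD-post and CON-post from 0.07 to 0.24.

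**Figure D2:**
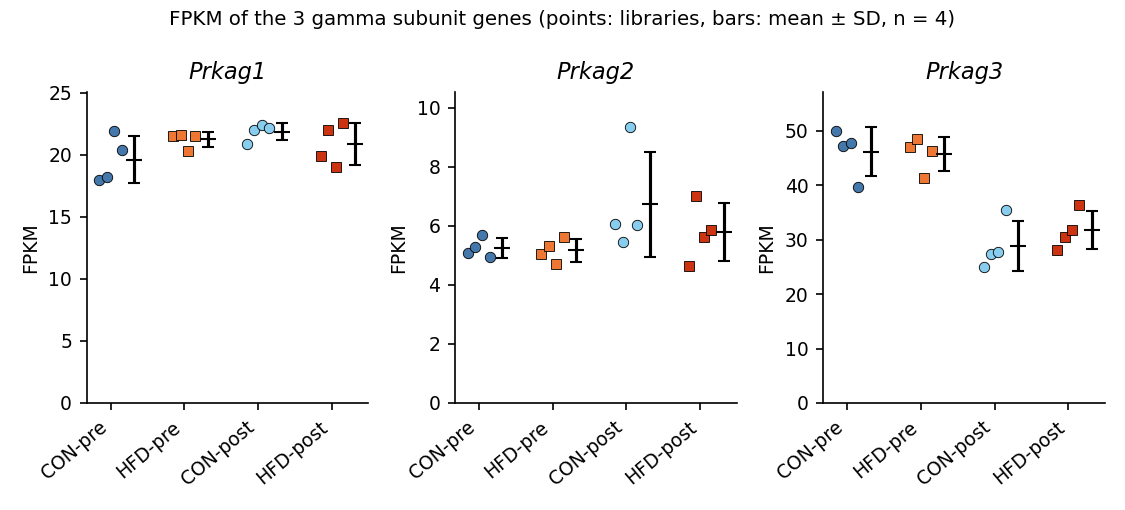
FPKM of the 3 gamma subunit genes by group on axes that start at 0, with a point for each library and a bar for the mean ± SD (n = 4). Prkag3 drops from 46.2 and 45.8 FPKM before exercise to 28.9 and 31.8 FPKM after it, while Prkag1 stays between 17.9 and 22.5 FPKM and Prkag2 has a single high library (9.33 FPKM) in CON-post.

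The other gamma genes were not called in any comparison. Prkag1 ranged from 17.9 to 21.9 FPKM in CON-pre, 20.3 to 21.6 in HFD-pre, 20.9 to 22.4 in CON-post and, for HFD-post, 19.0 to 22.5. Its largest difference was 0.16 on the log2 scale in CON-post against CON-pre (limma adjusted p = 0.449), with overlapping libraries. Prkag2 was 5.09, 5.28, 5.70 and 4.93 FPKM in CON-pre and 6.07, 5.45, 9.33 and 6.02 FPKM in CON-post. In HFD-pre Prkag2 was 5.06, 5.31, 4.70 and 5.62 FPKM, and in HFD-post 4.63, 7.01, 5.61 and 5.86 FPKM. CON-post replicate 3 stood well above the other libraries. The log2 fold change of Prkag2 in CON-post against CON-pre was 0.30 (adjusted p = 0.436) with that library and 0.14 (adjusted p = 0.730) without it.

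Within the class, these values shifted the make-up of the gamma transcripts, which is given as a description without a test because a share combines members. Prkag3 made up 64.9 ± 3.32% of the summed gamma FPKM in CON-pre and 63.4 ± 0.900% in HFD-pre (SD, n = 4). After exercise it made up 50.1 ± 3.96% of them in CON mice and 54.3 ± 2.44% in HFD mice. The share was 61.1 to 68.5% over the 8 pre-exercise libraries and 46.6 to 56.4% over the 8 post-exercise libraries, so these did not overlap. Prkag1 took 27.7 ± 3.09% in CON-pre and 38.2 ± 2.52% in CON-post, and 29.4 ± 0.827% in HFD-pre and 35.8 ± 1.90% in HFD-post. Prkag2 took 7.39 ± 0.287% in CON-pre and 11.7 ± 2.84% in CON-post, and 7.16 ± 0.343% in HFD-pre and 9.88 ± 1.36% in HFD-post. The FPKM ratio of Prkag3 to Prkag1 was 2.38 ± 0.380 in CON-pre, 2.16 ± 0.0884 in HFD-pre, 1.32 ± 0.186 after exercise in CON mice and 1.52 ± 0.144 after it in HFD mice. Summed over the class, gamma transcripts were 71.0 ± 4.48 FPKM in CON-pre, 72.2 ± 4.07 in HFD-pre, 57.4 ± 5.13 after exercise in CON mice and 58.4 ± 5.13 after it in HFD mice. Prkag3 remained the most abundant gamma gene in all 16 libraries.

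**Figure D3:**
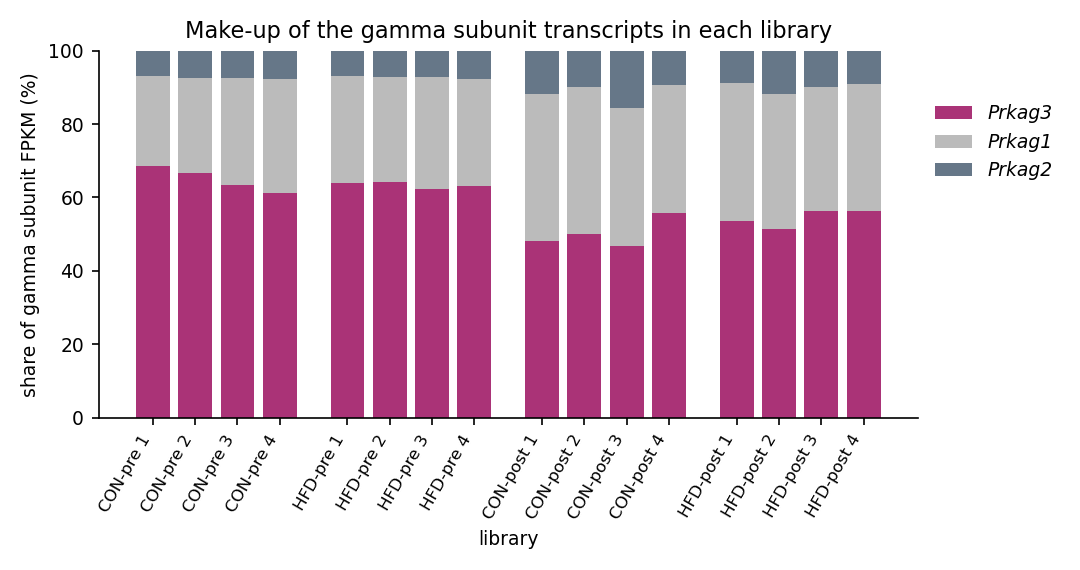
Share of the summed gamma subunit FPKM (%) taken by Prkag3, Prkag1 and Prkag2, with 1 stacked bar for each of the 16 libraries. The Prkag3 part ends between 61.1 and 68.5% in the pre-exercise bars and between 46.6 and 56.4% in the post-exercise bars.

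Because Prkag3 is a gene of fast fibres, fibre markers were set beside it. The 11 fast-fibre markers summed to 74301 to 82933 FPKM in CON-pre and 67223 to 73673 FPKM in CON-post, so these groups did not overlap. In HFD-pre they summed to 65789 to 73205 FPKM and in HFD-post to 56484 to 71681 FPKM, which overlapped. In CON-post against CON-pre, 9 of the 11 were lower, the median log2 fold change was -0.17 (median of all genes -0.01), and 1, the fast myosin light chain gene Myl1, was down-regulated (log2 fold change -0.39, limma adjusted p = 0.0397). That Myl1 call was lost in 14 of 26 alternatives, among them without CON-pre replicates 1, 2 or 3, without HFD-pre replicates 1, 2 or 3, without CON-post replicates 1, 3 or 4 and without HFD-post replicate 4 (limma adjusted p of 0.0545 to 0.154 without these libraries). In HFD-post against HFD-pre, 8 of the 11 were lower with a median of -0.08 (median of all genes 0.04) and 0 were called. The 8 slow-fibre markers summed to 207 to 705 FPKM in CON-pre, 198 to 512 in HFD-pre, 186 to 699 in CON-post and, for HFD-post, 191 to 751, with 0 called in these comparisons. Of these 8 genes, 5 were higher in CON-post against CON-pre (median log2 fold change 0.01), and 8 were higher both in HFD-post against HFD-pre (median 0.24) and with diets pooled (median 0.15, median of all genes 0.01). The 6 adipocyte markers summed to 289 to 336 FPKM in CON-pre, 287 to 395 in HFD-pre, 303 to 424 in CON-post and 316 to 613 in HFD-post, overlapping between the states, and 0 were called for exercise. Higher values were found for 5 of the 6 in CON-post against CON-pre (median log2 fold change 0.16), and for 6 of 6 in HFD-post against HFD-pre (median 0.44) and with diets pooled (median 0.30). With diets pooled, 2 of the 11 fast-fibre markers were called lower, Myl1 (log2 fold change -0.31, limma adjusted p = 0.00948) and the calcium store gene Casq1 (-0.32, adjusted p = 0.00546), beside 0.915% of all genes, and 0 of the 8 slow-fibre markers were called. With no filter on low values both lost their calls, and with quantile normalization Myl1 did (limma adjusted p of 0.0759 to 1). With diets pooled, 2.95% of all genes were called higher, and 1 gene was called in each of the endothelial, smooth muscle and skeletal muscle lists. Of 5 endothelial markers 3 were higher and 2 lower (median 0.02) and Pecam1 was called. All 3 smooth muscle markers were higher (median 0.21) and Tagln was called, except with no filter on low values. Of the 6 skeletal muscle markers 2 were higher and 4 lower (median -0.03) and Des was called, a call lost in 14 of 25 alternatives. None was called of the 4 macrophage markers tested (2 higher, median 0.02), 5 fibroblast markers (1 higher, median -0.12), 8 blood markers (5 higher, median 0.05) and 5 Schwann cell markers (4 higher, median 0.14), and the satellite cell markers were too low to test. In HFD-post against HFD-pre Pecam1 was the 1 called of 5 endothelial markers, 2 of them higher and 3 lower (median -0.01, median of all genes 0.04), and it lost that call in 12 of 26 alternatives. No marker of these lists was at 0 in all libraries, and their part in the Prkag3 result was not tested.

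Genes whose pattern over the 16 libraries was most like that of Prkag3 were found by the smallest root mean square difference of centred log2(FPKM + 0.5) values, among 5269 genes averaging 5 FPKM or more. Prkag3 was used for this ranking with its change already known, so the values are a description. The nearest was Lrrc38 (difference 0.113), an auxiliary subunit gene of potassium channels, at 8.63 ± 1.14 FPKM in CON-pre, 9.01 ± 0.621 in HFD-pre, 5.61 ± 0.314 in CON-post and, for HFD-post, 5.73 ± 0.348. It was followed by Sobp (0.169), Kansl1l (0.175), Igfbp5 (0.187) and 6430571L13Rik (0.188), where the median over all these genes was 0.365. Each of the 5 had lower means in both post-exercise groups than in both pre-exercise groups, a pattern that the ranking itself favours. Lrrc38 was called lower after exercise on both diets, Kansl1l and 6430571L13Rik in CON mice only, Igfbp5 in HFD mice only and Sobp on neither diet.

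The beta class was almost entirely Prkab2, the beta subunit gene typical of skeletal muscle (chromosome 3, 97658211 to 97673812, plus strand). Prkab2 was 125, 127, 123 and 106 FPKM in CON-pre and 90.6, 111, 101 and 104 FPKM in CON-post. In HFD-pre it was 108, 109, 106 and 109 FPKM, and in HFD-post 74.0, 103, 101 and 103 FPKM. The lowest value by far was that of HFD-post replicate 1, the library with the lowest FPKM sum of all 16.

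Prkab2 means were lower after exercise, but no comparison called it. CON means were 119.8 ± 9.58 FPKM before and 101.7 ± 8.48 FPKM after exercise, a log2 fold change of -0.24 (unadjusted p = 0.0286, limma adjusted p = 0.374). In HFD mice they were 107.9 ± 1.45 FPKM before and 95.2 ± 14.2 FPKM after exercise, a log2 fold change of -0.19 (limma adjusted p = 0.465). These HFD groups did not overlap, as for 6.81% of all genes tested, and without HFD-post replicate 1 the log2 fold change was -0.08 (adjusted p = 0.729). With diets pooled it was -0.21 (standard error 0.07, unadjusted p = 0.0070, adjusted p = 0.10). Pooled over diets, Prkab2 passed the threshold under 3 other scalings of the libraries, with adjusted p = 0.0233 for upper-quartile, 0.0306 for median-of-ratios and 0.0253 for quantile scaling, and log2 fold changes of -0.26, -0.23 and -0.27.

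Prkab1, the beta gene typical of liver and other tissues (chromosome 5, 116013586 to 116024503, minus strand), ranged from 2.37 to 4.10 FPKM over all 16 libraries. Its log2 fold changes in the 4 comparisons of groups lay between 0.02 and 0.08, and its libraries overlapped in each. Prkab2 made up 97.6 ± 0.306% of the beta FPKM in CON-pre, 97.1 ± 0.587% in HFD-pre, 97.1 ± 0.252% in CON-post and, for HFD-post, 96.7 ± 0.640%.

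In the catalytic class, Prkaa2, the alpha subunit gene typical of skeletal muscle and heart (chromosome 4, 105029649 to 105109898, minus strand), carried most of the transcripts. Prkaa2 was 35.7, 41.3, 35.2 and 36.9 FPKM in CON-pre and 29.99, 34.2, 33.6 and 32.3 FPKM in HFD-pre. In CON-post it was 34.4, 32.8, 30.3 and 35.2 FPKM, and in HFD-post 30.1, 33.0, 35.3 and 33.8 FPKM. CON-pre had the highest mean, and its libraries overlapped those of HFD-post, whose highest value (35.3 FPKM) passed the lowest of CON-pre (35.2 FPKM). The other 3 groups overlapped one another.

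None of the 9 members passed the test for diet before exercise. By limma, 0 of 9 had an adjusted p under 0.05, beside 0.346% of all genes tested, and 2 of 9 (Prkaa2 and Camkk2) had an unadjusted p under 0.05, beside 8.25%. Prkaa2 averaged 37.3 ± 2.76 FPKM in CON-pre and 32.5 ± 1.85 FPKM in HFD-pre, a log2 fold change of -0.19 (95% interval -0.35 to -0.04, unadjusted p = 0.0177, adjusted p = 0.455). It was the 1 member whose CON-pre and HFD-pre libraries did not overlap, beside 5.62% of all genes tested.

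Marker genes also differed between the diets before exercise. Summed fast-fibre markers were 74301 to 82933 FPKM in CON-pre and 65789 to 73205 FPKM in HFD-pre, which did not overlap, and 10 of the 11 were lower in HFD-pre (median log2 fold change -0.20, median of all genes -0.03). The 6 skeletal muscle markers summed to 29590 to 33814 FPKM in CON-pre and 27180 to 29253 FPKM in HFD-pre, again with no overlap, and 5 of 6 were lower (median -0.19). Summed FPKM of whole libraries did not overlap either, at 305490 to 327559 in CON-pre and 294867 to 303652 in HFD-pre. The part of this library-wide difference in the marker sums was not tested. Of the 8 slow-fibre markers 7 were lower (median -0.54), with summed levels that overlapped, and none of these 3 lists had a called gene. Lep, the leptin gene of adipocytes, was the 1 marker called, at 0.514 ± 0.442 FPKM in CON-pre and 4.52 ± 1.86 FPKM in HFD-pre (log2 fold change 2.34, limma adjusted p = 0.0138). Its call was lost in 5 of 26 alternatives, with no filter on low values and on omission of CON-pre replicates 1 or 3 or of HFD-pre replicates 1 or 4 (limma adjusted p of 0.0583 to 0.115). Adipocyte markers as a list were higher for 4 of 6 (median 0.09), with summed levels that overlapped. Among the remaining lists 5 of 5 endothelial, 3 of 3 smooth muscle and 4 of 5 Schwann cell markers were higher (medians 0.12, 0.19 and 0.12), while 4 of 4 macrophage, 4 of 5 fibroblast and 6 of 8 blood markers were lower (medians -0.27, -0.08 and -0.36). The part of these markers in the diet values of the members was not tested.

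After exercise on the control diet, Prkaa2 averaged 33.2 ± 2.13 FPKM, a log2 fold change of -0.16 against CON-pre (limma adjusted p = 0.418). The highest CON-post value lay just under the lowest CON-pre value, and with Prkag3 this made 2 members whose libraries did not overlap, beside 5.82% of all genes tested. In HFD mice Prkaa2 averaged 33.1 ± 2.21 FPKM after exercise and differed from HFD-pre by 0.02 (95% interval -0.13 to 0.18, adjusted p = 0.937). The comparisons of HFD-pre and of CON-post share the CON-pre libraries, so they are not independent.

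Prkaa1, the broadly expressed alpha gene (chromosome 15, 5143861 to 5181899, plus strand), was 3.49 to 3.799 FPKM in CON-pre, 2.62 to 3.61 in HFD-pre, 2.87 to 4.27 in CON-post and 3.36 to 4.26 in HFD-post. Groups overlapped in every comparison, and the largest difference was 0.20 on the log2 scale in HFD-post against HFD-pre (limma adjusted p = 0.531). Prkaa2 made up 91.1 ± 0.684% of the alpha FPKM in CON-pre, 90.8 ± 1.57% in HFD-pre, 90.7 ± 2.08% in CON-post and, for HFD-post, 89.7 ± 0.966%.

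Of the upstream kinases, Stk11 was the steadiest of the 9 members. LKB1, its product, phosphorylates the activation loop of the alpha subunit (Stk11 lies on chromosome 10, 80115767 to 80130679, plus strand). Stk11 averaged 42.5 ± 1.56 FPKM in CON-pre, 42.5 ± 2.53 in HFD-pre, 41.5 ± 3.35 in CON-post and, for HFD-post, 42.4 ± 2.57. Its coefficient of variation over all 16 libraries was 5.56%, the lowest of the members, against 23.3% for Prkag3. The log2 fold changes of Stk11 in the 4 comparisons of groups lay between -0.04 and 0.03, and their 95% intervals together spanned -0.19 to 0.18.

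Camkk2, the calcium-dependent kinase gene (chromosome 5, 122718380 to 122779522, minus strand), was low in every library. Camkk2 was 1.13, 1.21, 1.52 and 0.744 FPKM in CON-pre and 0.839, 1.25, 0.924 and 1.44 FPKM in CON-post. In HFD-pre it was 0.709, 0.601, 0.628 and 1.13 FPKM, and in HFD-post 0.620, 0.875, 0.741 and 0.995 FPKM. The HFD means were the lower ones in both states, with libraries that overlapped.

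With exercise states pooled, Camkk2 averaged 1.13 ± 0.280 FPKM in CON and 0.787 ± 0.194 FPKM in HFD mice, a log2 fold change of -0.34 (95% interval -0.60 to -0.08, unadjusted p = 0.0138, limma adjusted p = 0.286). No member was called for the pooled diet comparison, beside 0.959% of all genes tested, and 1 of 9 had an unadjusted p under 0.05, beside 10.4%. On the log2(FPKM + 0.5) scale the change of a gene this low is understated. Exercise differences of Camkk2 were -0.03 in CON and 0.06 in HFD mice.

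In HFD-post against CON-post, limma called 0 of 9 members, beside 0.151% of all genes tested, and 0 had an unadjusted p under 0.05, beside 6.29%. No member had groups that did not overlap, beside 3.16%. For the interaction of diet and exercise, 0 members and 0 of all genes tested were called, and 0 members and 356 of all genes (3.16%) had an unadjusted p under 0.05.

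**Figure D4:**
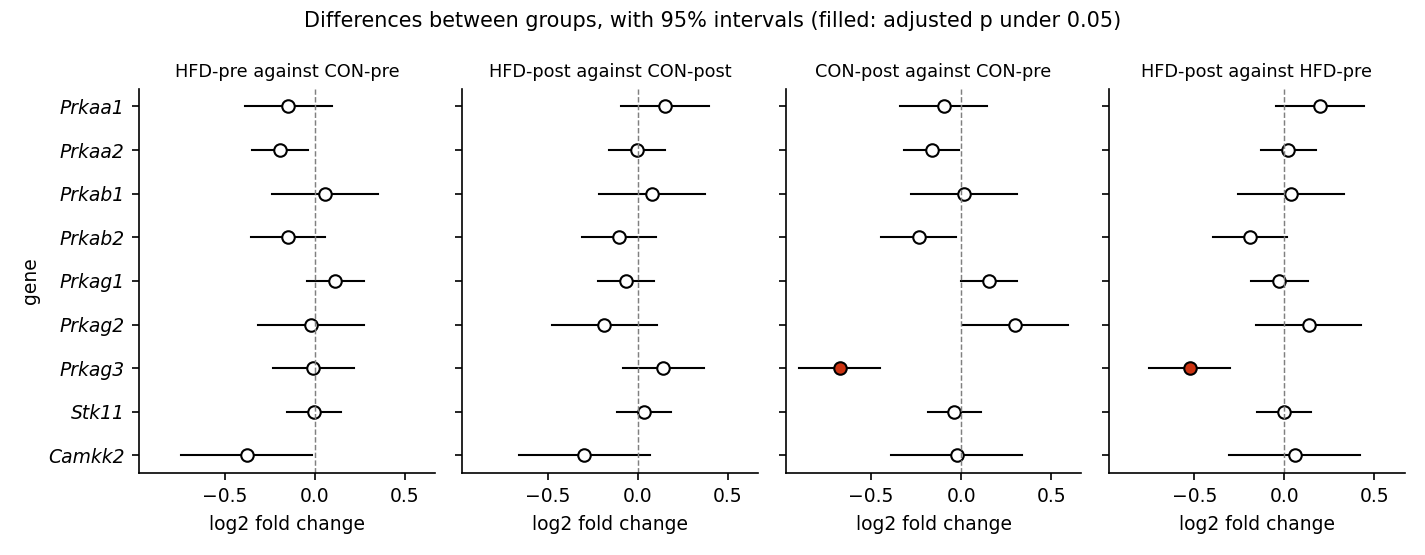
Log2 fold changes of the 9 genes in the 4 comparisons of groups, with 95% intervals and filled points for an adjusted p under 0.05. The filled points are those of Prkag3 in CON-post against CON-pre (-0.67) and in HFD-post against HFD-pre (-0.53), and the widest intervals are those of Camkk2.

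Other genes of the pathway were followed in 4 lists of upstream regulators, AMPK-related kinases, AMPK substrates and adenine nucleotide enzymes. Of 25 upstream regulators (partners of LKB1, other AMPK kinases, calmodulins, sestrins, folliculin and its partners, and phosphatases) 23 were tested. As above, 0.346% of all genes tested were called in HFD-pre against CON-pre, 1.11% in CON-post against CON-pre and 0.542% in HFD-post against HFD-pre. In HFD-pre and in HFD-post against HFD-pre 0 of the regulators were called, with medians of 0.01 and 0.07 (medians of all genes -0.03 and 0.04). In CON-post 1 of 23 was called, Ppp2ca, the catalytic subunit gene of a phosphatase, which rose from 55.1 ± 3.30 to 68.1 ± 2.47 FPKM (log2 fold change 0.30, limma adjusted p = 0.0128). The Ppp2ca call was lost with each of the 3 other scalings, in a fit of the 2 groups compared, and without CON-pre replicate 1 or 3 (limma adjusted p of 0.0523 to 0.104).

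AMPK-related kinases share the LKB1 activation step with AMPK, and 9 of the 12 listed were tested. In HFD-pre against CON-pre 0 were called. Sik1, a kinase gene rapidly induced by cAMP signalling, was up-regulated after exercise from 1.80 ± 0.167 to 5.14 ± 0.252 FPKM in CON mice (log2 fold change 1.30, limma adjusted p = 6.51e-05). In HFD mice Sik1 rose from 1.67 ± 0.223 to 4.15 ± 0.962 FPKM (1.08, adjusted p = 8.25e-04). The other 8 of 9 were not called in these comparisons, beside 1.11% of all genes called in CON mice and 0.542% in HFD mice.

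All 28 genes listed for proteins that AMPK phosphorylates were tested. After exercise 2 of 28 were called in CON mice, beside 1.11% of all genes, and 1 of 28 in HFD mice, beside 0.542%, all of them up-regulated. Ppargc1a, the coactivator of mitochondrial genes, rose from 6.60 ± 0.365 to 28.3 ± 7.998 FPKM in CON mice (log2 fold change 1.98, limma adjusted p = 4.38e-05). In HFD mice it rose from 4.69 ± 0.344 to 22.3 ± 5.40 FPKM (2.10, adjusted p = 2.87e-05).

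Between the diets before exercise 2 of the 28 substrate genes were called, beside 0.346% of all genes, which act on malonyl-CoA in opposite directions. Acaca, whose product makes malonyl-CoA, fell from 1.78 ± 0.154 in CON-pre to 0.939 ± 0.103 FPKM in HFD-pre (log2 fold change -0.67, limma adjusted p = 0.00837). Mlycd, whose product breaks malonyl-CoA down, rose from 20.1 ± 2.38 to 29.5 ± 2.25 FPKM (0.55, adjusted p = 0.0138). Acacb, a listed gene whose product also makes malonyl-CoA, was not called (log2 fold change 0.04, limma adjusted p = 0.934). It was far more abundant than Acaca, at 37.8 ± 2.36 FPKM in CON-pre and 38.8 ± 0.965 FPKM in HFD-pre. Acaca kept its call in all 26 alternatives, while Mlycd lost it in 6, with no filter on low values, in a fit of the 2 groups compared, and when 1 of the following libraries was omitted, namely CON-pre replicates 1 and 2 and replicates 3 and 4 of HFD-pre (limma adjusted p of 0.0513 to 0.0659). The fibre, skeletal muscle and Lep values given with Prkaa2 differed in the same comparison, and their part in the Acaca and Mlycd calls was not tested. Mlycd also rose after exercise in CON mice, to 29.1 ± 2.87 FPKM (0.52, adjusted p = 0.00709), a call lost only in the fit of the 2 groups compared (limma adjusted p = 0.0553). Of the 16 adenine nucleotide enzymes, among them adenylate kinases, AMP deaminases and creatine kinases, 0 were called in any of the 4 comparisons of groups.

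With diets pooled, more genes of the 4 lists passed the test for exercise. Of the substrates 6 were called higher and 1 lower, of the upstream regulators 4 higher, of the AMPK-related kinases 2 higher, and of the nucleotide enzymes 1 higher and 1 lower, where 2.95% of all genes tested were called higher and 0.915% lower. List medians were 0.11, 0.03, 0.20 and -0.01, against 0.01 over all genes. The genes called for exercise in this pooled comparison and not within either diet were singled out after their values were seen. Those of the 4 lists were Cab39 (0.28), the scaffold partner of LKB1, Fnip1 (0.48), Sesn1 (0.40), Sik3 (0.20), Tbc1d1 (0.52), Foxo3 (0.48), Hdac5 (0.28), Acacb (0.20) and Ampd3 (0.49) among the rises, and Pfkfb3 (-0.95) and Ak1 (-0.23) among the falls, as log2 fold changes with limma adjusted p of at most 0.0495. Of these 11 calls, that of Sik3 was lost in 19 of 25 alternatives, Sesn1 in 16, Tbc1d1 in 9, Acacb in 2 and Pfkfb3 in 2 (with no filter, and without CON-pre replicate 1, adjusted p = 0.0527), and the other 6 were kept in all 25. For diet pooled over exercise states 3 genes of the 4 lists were called, beside 0.959% of all genes tested, namely Acaca (-0.52), Mlycd (0.40) and Ak1 (-0.19, limma adjusted p = 0.0492), an adenylate kinase gene whose call was lost in 18 of 25 alternatives. In this comparison 10 of 11 fast-fibre, 7 of 8 slow-fibre, 5 of 6 skeletal muscle, 4 of 4 macrophage and 5 of 5 fibroblast markers were lower. Higher were 5 of 6 adipocyte, 3 of 3 smooth muscle, 4 of 5 Schwann cell, 3 of 5 endothelial and 4 of 8 blood markers. Lep was the 1 marker called, and the part of the markers in the 3 calls was not tested. Pfkfb3 libraries varied widely in the CON groups, at 93.5 ± 39.4 FPKM in CON-pre and 55.0 ± 26.9 in CON-post, and little in the HFD groups, at 50.6 ± 2.87 in HFD-pre and 23.3 ± 2.59 in HFD-post.

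**Figure D5:**
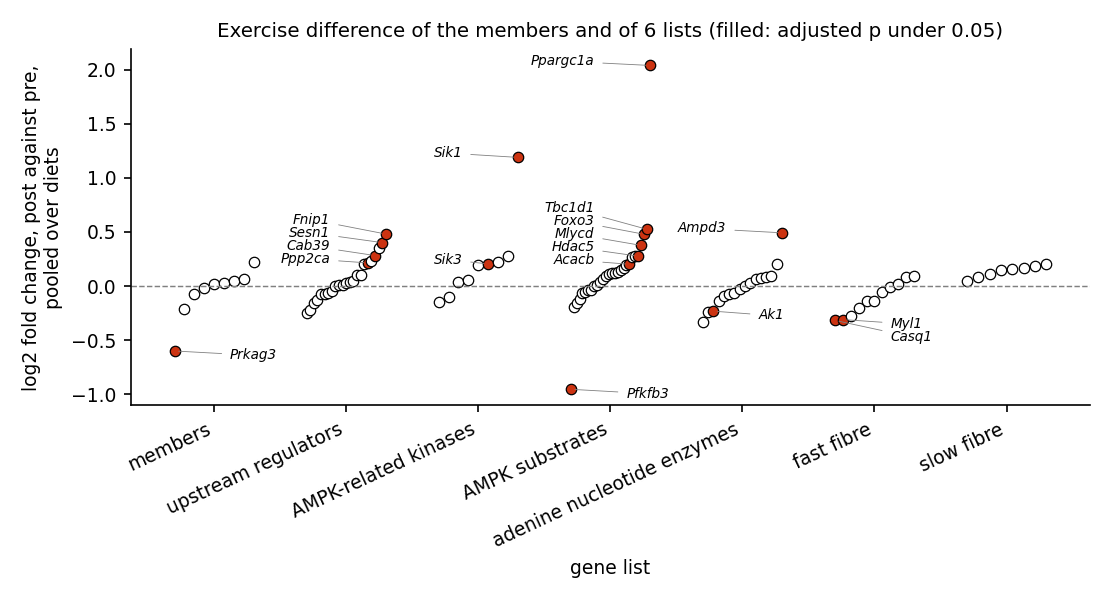
Log2 fold change of post- against pre-exercise, pooled over diets, for each tested gene of the members and of 6 gene lists, with filled points for an adjusted p under 0.05. Prkag3 (-0.60) is the filled point among the members, Ppargc1a (2.04) and Sik1 (1.19) are the highest points, and none of the 8 slow-fibre genes is filled.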

How the data were processed

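Total RNA from quadriceps of 16 male mice (4 per group) was sequenced from stranded, polyA-selected libraries. Per the labels and the Methods, the authors checked reads with FastQC, aligned them with TopHat to mm9 and estimated expression with Cufflinks; versions are not given in the sources used here. The deposited values are FPKM by the authors, scaled for transcript length and library size. They are not counts, so the precision of a value at its depth is not known and no count model was used. Positions and promoters were taken from RefSeq (GRCm38.p6): of 692 loci in the study's list of changed genes, 692 overlapped their own gene in that build and 114 in mm9 (GENCODE M1).

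Of 24487 entries, 27 with names turned into dates were dropped (0.0771% of FPKM). Entries of 260 repeated symbols were summed, leaving 23970. Every sample column was used (0 left out), and 0 pairs of libraries held identical values (correlation of log2 values 0.966 to 0.984). The 11256 genes averaging 0.5 FPKM or more were tested with limma 3.58.1 in R 4.3.3 on log2(FPKM + 0.5), which understates the change of low genes, fitting the 4 groups together with a trended prior variance and no covariates. Calls required an adjusted p (Benjamini-Hochberg, all genes tested) under 0.05. The p-values measure the spread between mice within groups, pooled over the 4 groups and moderated by the trended prior variance. A library outside the groups compared therefore also affects them. Contrasts were the 4 comparisons of groups, exercise pooled over diets, diet pooled over exercise states, and their interaction. Python 3.11.15 with pandas 2.3.3, numpy 2.4.6 and matplotlib 3.10.9 served for tables and plots, and the code was tested on simulated data.

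The members, gene lists, tests and alternatives were chosen with earlier results of these data known. By rule, the genes named are the 9 members, list genes called in at least 1 of the 4 comparisons of groups, the 5 genes most like Prkag3, and markers beside a member. List genes called only in a pooled comparison were added after their values were seen. Each alternative changed 1 choice: pseudocount (0.1 or 1), filter (none, or 1 FPKM), scaling (3 others), samples (only those of the groups compared), variance model (no mean-variance trend), a replicate block, and leaving out each of the 16 libraries. Metabolomics and the values of the study's own comparisons are not used here. The study's list of changed genes served for the check of the genome build. Prkag3 was chosen for the likeness ranking as the member that this list holds.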

Additional observations from a re-analysis of the deposited data

Results flagged for a closer look

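Each of the 9 genes was examined in each of the 4 groups, 36 sets of 4 libraries, for a library far from the other 3 by Dixon's ratio (past its 95% critical value). In 4 sets a library stood apart, and chance gives about 1 in 20. Prkab2 was 74.0 FPKM in HFD-post replicate 1 and 101 to 103 FPKM in the others (ratio 0.931). Stk11 was 38.6 FPKM in the same library and 43.3 to 43.9 FPKM in the others (ratio 0.888), and without that library Stk11 differed by 0.04 on the log2 scale between HFD-post and HFD-pre (limma adjusted p = 0.868). Prkag2 was 9.33 FPKM in CON-post replicate 3 and 5.45 to 6.07 FPKM in the others (ratio 0.840). Prkag1 was 20.3 FPKM in HFD-pre replicate 3 and 21.5 to 21.6 FPKM in the others (ratio 0.929), and without that library it differed by 0.14 between HFD-pre and CON-pre (adjusted p = 0.782).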

How the results depend on the processing

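The 63 log2 fold changes of the members were recomputed under up to 26 alternatives, 1604 values in all. The 3 called results, all of Prkag3, kept their direction in each. In 26 of the others, the largest of them 0.10 in size, the direction reversed in some fit, 93 times in all, 69 of them when a library was left out. Because the files hold no counts, low genes such as Camkk2 cannot be given a counting error. The replicate numbers did not pair the libraries (correlation of deviations -0.220 to 0.213 over 24 same-number pairs, 5 over 0.1). Where a cause is not given, the cause was not tested.

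The number of members called in HFD-post against HFD-pre was 0 with no filter, with no mean-variance trend and with a replicate block (Prkag3 adjusted p = 0.0760), and 0 to 1 when a library was left out. For exercise pooled over diets it was 2 with each of the 3 other scalings, where Prkab2 joined Prkag3. Pathway genes called in HFD-pre against CON-pre numbered 2, but 1 with no filter and in a fit of the 2 groups compared, and 1 to 2 with a library left out, the lost gene being Mlycd. In CON-post against CON-pre they numbered 4, but 2 in a fit of the 2 groups compared (Ppp2ca and Mlycd lost) and 3 to 7 with a library left out, and for diet pooled 3, with 2 to 5. The replicate block changed no other call of a member, and among the list genes called it lost Pecam1 in HFD-post against HFD-pre, Des, Sesn1 and Sik3 for exercise pooled and Ak1 for diet pooled (adjusted p of 0.0511 to 0.0953).

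Over all genes, calls with no filter, which tests 23970 genes, numbered 24 in HFD-pre against CON-pre, 75 in CON-post against CON-pre, 20 in HFD-post against HFD-pre, 6 in HFD-post against CON-post, 222 for exercise pooled, 62 for diet pooled and 1 for the interaction. In a fit of the 2 groups compared they numbered 81 in CON-post against CON-pre and 2 in HFD-post against CON-post, and in HFD-pre against CON-pre 17 higher and 17 lower, where the fit of all groups gave 27 and 12. With a library left out they ranged from 21 to 43, 88 to 190, 21 to 79, 5 to 16, 246 to 565 and 76 to 122 in the same order.

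Reversed log2 fold changes in HFD-pre against CON-pre were 0.0011 for Prkag2, 0.015 for Prkag3 and 0.020 for Stk11 with upper-quartile, 0.016, 0.031 and 0.036 with median-of-ratios and 0.025, 0.017 and 0.029 with quantile scaling. In CON-post against CON-pre Prkab1 was -0.0075 with upper-quartile scaling. In HFD-post against HFD-pre Prkaa2 was -0.040, -0.015 and -0.036 with these 3 scalings, and Prkab1 was -0.020 with upper-quartile and -0.0070 with quantile scaling. In HFD-post against CON-post Prkaa2 was 5.7e-04 with quantile scaling. For exercise pooled, Camkk2 was -0.014 with upper-quartile and -1.8e-05 with quantile scaling, and Prkab1 was -0.014 with upper-quartile scaling. For the interaction, Prkab1 was -0.012, -0.018 and -0.034 with the 3 scalings, and Stk11 was -0.0063 with median-of-ratios and -0.0082 with quantile scaling.

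With a library left out, log2 fold changes that reversed ranged as follows. In HFD-pre against CON-pre the range was Prkab1 -0.055 to 0.13, Prkag2 -0.058 to 0.021, Prkag3 -0.079 to 0.040 and Stk11 -0.032 to 0.022. In CON-post against CON-pre the range was Prkab1 -0.077 to 0.11, Stk11 -0.070 to 0.020 and Camkk2 -0.15 to 0.079. In HFD-post against HFD-pre the range was Prkaa2 -0.015 to 0.067, Prkab1 -0.033 to 0.15, Prkag1 -0.065 to 0.015, Stk11 -0.026 to 0.042 and Camkk2 -0.011 to 0.18. In HFD-post against CON-post the range was Prkaa2 -0.048 to 0.038, Prkab1 -0.014 to 0.12, Prkab2 -0.16 to 0.011 and Stk11 -0.025 to 0.077. For exercise pooled the range was Prkaa1 -5.24e-04 to 0.083, Prkab1 -0.021 to 0.083, Stk11 -0.036 to 0.0092 and Camkk2 -0.049 to 0.079. For diet pooled the range was Prkaa1 -0.031 to 0.053 and Stk11 -0.014 to 0.037. For the interaction the range was Prkab1 -0.073 to 0.13, Prkab2 -0.011 to 0.16, Stk11 -0.022 to 0.080 and Camkk2 -0.023 to 0.21.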
